A study of Homo sapiens with 4 samples.

Results

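The narrow control peaks are the 521 regions under 1000 bp wide among the 36677 regions of trimethylated histone H3 lysine 4 (H3K4me3) that the authors called in control MDA-MB-231 cells, 1.42% of that list. They were chosen by the deposited width alone. Their widths, tags, scores and positions come from the library that chose them and are therefore given as a description, without a test. The overlap with the peak list of the knockout comes from other libraries. The 9546 control peaks from 1000 bp to just under 2000 bp (26.0% of the list), here the 1 to 2 kb class, serve for comparison. MDA-MB-231 is a long-established cell line from a triple-negative breast cancer. The study comprised 4 libraries, 1 H3K4me3 immunoprecipitate (IP) and 1 input from control cells and the same from cells in which ARID1A was knocked out, with no further treatment or time point given. Each genotype therefore has 1 IP, and no difference between genotypes has a replicate check. Intervals of tags cover counting error only. Those of shares and medians treat the peaks of 1 library as separate draws, which they are not shown to be, and peaks are not replicates.

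Several labels limit what the libraries can stand for. The control IP and both knockout libraries carry cell line names that end in other numbers than 231, and the name in the series title was used. The header of the knockout list calls its libraries K6, so that only the name of the list itself ties it to the knockout. Both input libraries have IgG as their antibody label. Whether the knockout is 1 clone, and how it was made, was not stated in the labels or headers. The control IP held 27748061 tags against 14878873 in its input, and the knockout IP held 13391724 against 17890122. Coordinates are hg19. No hg19 sequence or annotation was used here, so the genes, promoters and bases at these regions, and the markers of the cell line, were not analysed.

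H3K4me3 is written mainly by the SET1 and MLL methyltransferase complexes on nucleosomes that flank the start sites of active genes, and it is bound by proteins with PHD fingers, among them the TFIID subunit TAF3. Strong promoters and genes of cell identity are known for wide domains that span many nucleosomes. Short or weak stretches of the mark are known from weakly active promoters, from bivalent promoters that also carry the Polycomb mark, and from some enhancers. ARID1A is a DNA-binding subunit of the BAF form of the SWI/SNF remodelling complex, which moves and evicts nucleosomes at enhancers and promoters. Chromatin was cut with micrococcal nuclease, which spares nucleosomal DNA, so the fragments under a peak come in units of nucleosomes.

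The narrow control peaks were short stretches with few tags, at a density per kb close to that of the next width class. A tag is 1 aligned read, and the deposited counts are raw tags within a peak. Narrow peaks held between 18 and 106 tags, with a median of 31 (quartiles 27 and 35). The 1 to 2 kb peaks held 30 to 373 tags, with a median of 57 (quartiles 46 and 73). The classes overlapped only in part. Of the narrow peaks 218 (41.8%) held under 30 tags, and these were all the peaks of the control list under that count. Of the narrow peaks 8 reached the median of the wider class. Divided by width, the medians were 38.0 tags per kb for narrow peaks (range 29.9 to 118) and 35.8 for the wider class (range 22.4 to 250), and the median over all control peaks was 56.5. Pooled over all their length, the narrow peaks held 39.5 tags per kb and the wider class 40.4, so the order of these classes depended on the measure. The narrow peaks covered 0.418 Mb, or 0.300% of the length of the control list, and held 16523 tags, which is 0.0595% of the control IP.

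Widths within the narrow group fell into a small cluster and a larger rising part, with a dip between them. From 453 bp, the narrowest peak of the list, to 499 bp there were 47 peaks, and from 500 to 599 bp there were 56. Only 26 peaks were 600 to 699 bp wide. The numbers then rose to 61, 121 and 210 in the next classes of 100 bp, and to 377 from 1000 to 1099 bp. Among the narrow peaks the lowest tag count in a class rose with its width, from 18 in the narrowest class to 23 from 600 to 699 bp and 28 from 900 to 999 bp. It was 30 from 1000 to 1099 bp and reached 38 from 1400 bp, then 38, 37, 41, 41 and 44 in the 5 classes of 100 bp from 1500 bp on, so the rise went on past the limit of 1000 bp but was not steady in the upper classes. Across the 521 narrow peaks Spearman's rho between width and tags was 0.65, and between width and tags per kb it was -0.44, as a description of regions from 1 library.

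**Figure D1:**
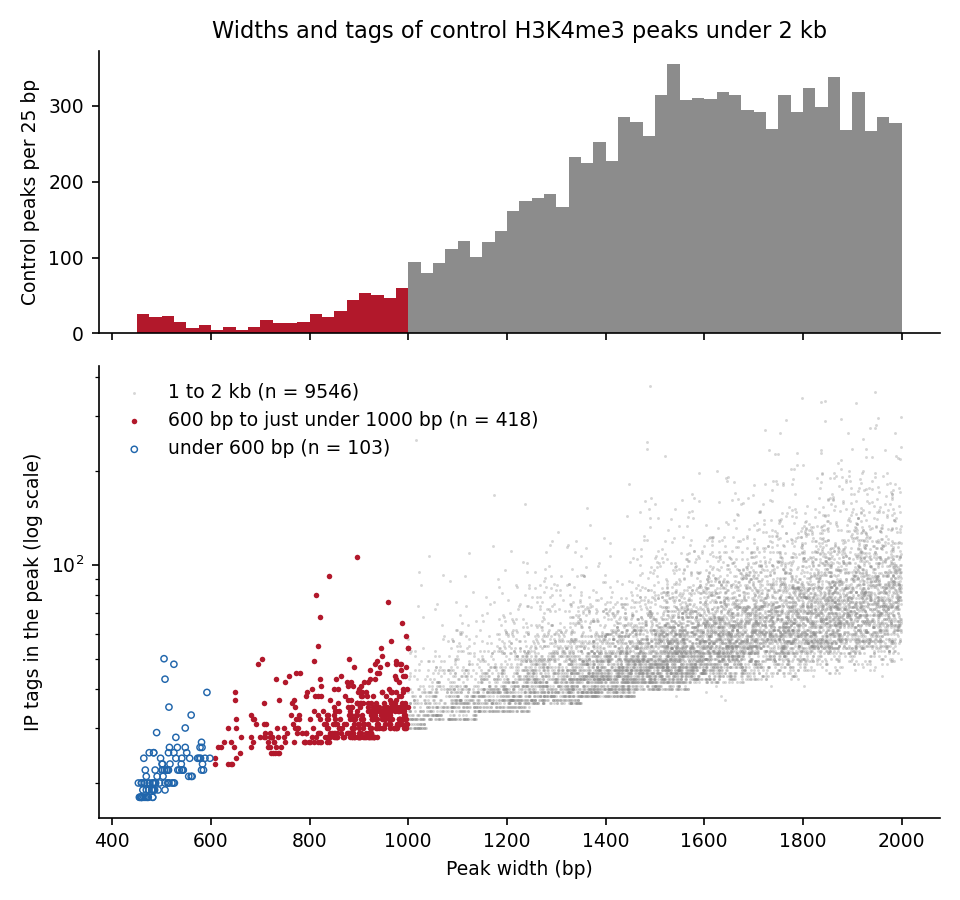
The upper panel counts control peaks in 25 bp steps of width (red under 1000 bp, grey from 1 to 2 kb). The lower panel shows the IP tags of each peak on a log scale against its width in bp. The 103 peaks under 600 bp (open circles) form a cluster apart from the 418 narrow peaks of 600 bp or more, and the lowest tag counts rise from class to class up to 1400 bp, from 18 to 38, and unevenly beyond.

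The 103 peaks under 600 bp also differed in the place of the deposited summit. In each of them the summit, the position where the most tags pile up, lay within 1 bp of the centre of the peak. From 600 to 899 bp no peak of 208 had a central summit by this measure, and from 900 to 999 bp 3 of 210 did (1.43%). In the 1 to 2 kb class the share was 0.723% (69 of 9546). MACS was run with a fragment length of 300 bp, so 2 such fragments end to end span 600 bp. The central summit below that width was therefore not read as a trait of the mark. Whether it follows from this setting was not tested. The 103 peaks held a median of 22 tags (range 18 to 50) and the other 418 narrow peaks a median of 32 (range 23 to 106). Among the 47 peaks under 500 bp, 37 held 18 to 20 tags, which places them at the lower edge of what was called. Away from the centred peaks, summits of narrow peaks lay a median of 108 bp from the centre. The division at 600 bp was made after the widths and summits were seen.

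**Figure D2:**
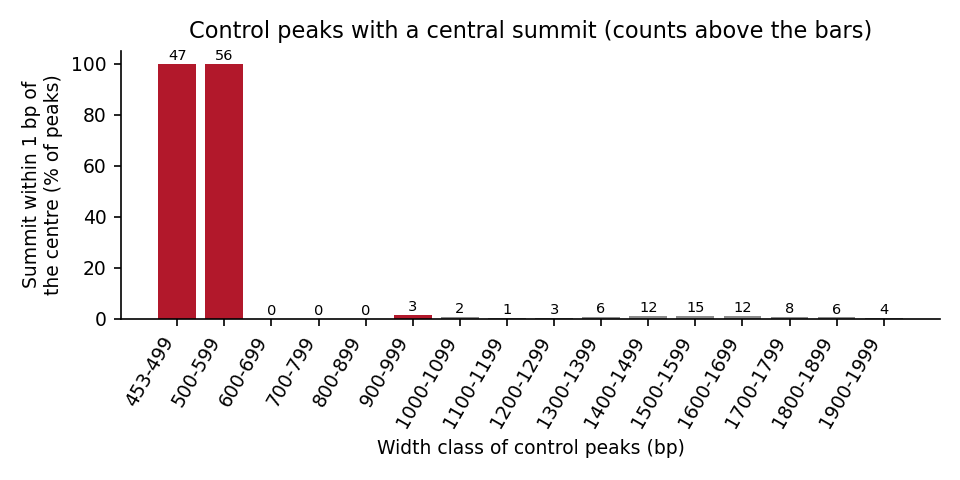
Bars give the percentage of control peaks in each width class (bp) whose summit lies within 1 bp of the centre, with the number of such peaks above each bar (red under 1000 bp, grey from 1000 bp). All 47 and 56 peaks of the first 2 classes have a central summit, and at most 1.43% do in any class shown from 600 bp on.

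By the authors' own peak statistics the narrow peaks sat close to the calling threshold. The deposited score is -10 times the log10 of the MACS p, and calling required a score of at least 40. Its median was 48.5 for narrow peaks (range 40.1 to 332) and 68.5 for the wider class. The deposited false discovery rate (FDR), which MACS derives by exchanging IP and input, had a median of 22.6% in narrow peaks and 7.98% in the wider class. It was above 20% for 305 narrow peaks (58.5%) and 2264 of the wider class (23.7%). Only 3 narrow peaks had an FDR of 1% or less, against 635 of the wider class (6.65%) and 20009 of all control peaks (54.6%). Fold enrichment over the local background differed less, with medians of 12.9 and 14.4.

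A few narrow peaks stood well above the rest in tags. The richest, with 106 tags (exact Poisson interval 86.8 to 128), was an 896 bp peak between 73159779 and 73160674 on chromosome 3. The second, with 92 tags (74.2 to 113), spanned 840 bp between 30117425 and 30118264 on chromosome 21. The next 3, on chromosomes 19, 16 and 6, held 80, 76 and 68 tags over 813, 960 and 821 bp. These 5 peaks had an FDR of 0.63 to 1.03%, far below the median of the group. The peak of 80 tags, between 58011487 and 58012299 on chromosome 19, lay 9435 bp from a control domain of 4103 bp with 752 tags, and 212 bp from a knockout peak that did not reach it. At the other end, the narrowest peak spanned 453 bp between 162462614 and 162463066 on chromosome 3 and held 20 tags (12.2 to 30.9). The next 4 in width, on chromosomes 2, 13, 3 and 3, were 455 to 459 bp wide and held 18 tags each, with the same score of 43.6 and an FDR of 31.5%. A further peak of 459 bp, tied in width with the last of them, held 20 tags with a score of 48.2. Counting intervals of the 5 overlap, and none of the 5 had a knockout peak closer than 57790 bp.

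Narrow peaks were on the whole farther from other control peaks than peaks of the wider class. The distance, counted as the bases between the edges of a peak and of the nearest other control peak of any width, had a median of 18842 bp for narrow peaks (order-statistic 95% interval 15738 to 24022) and 13100.5 bp for the wider class (12539 to 13688). Narrow peaks had the larger median on 20 of the 23 chromosomes that held any. The exceptions were chromosomes 8, 14 and 22. No other control peak lay within 50000 bp of 148 narrow peaks (28.4%, exact Clopper-Pearson 95% interval 24.6 to 32.5%), against 19.0% (18.2 to 19.8%) of the wider class. Over all control peaks the median was 11285 bp, and 14.6% had no other control peak within 50000 bp. Within 1000 bp the classes were closer together, and within 100 bp the narrow share was the higher, with intervals that overlap at their edges. The shares over all control peaks were 12.6% and 3.13%. A neighbour within 1000 bp was found for 64 narrow peaks (12.3%, 9.59 to 15.4%) and for 11.4% (10.8 to 12.1%) of the wider class, and a neighbour within 100 bp for 4.99% (3.29 to 7.23%) and 2.99% (2.65 to 3.35%).

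The 64 narrow peaks with a neighbour within 1000 bp mostly lay beside a peak with more tags. Their neighbours had a median width of 3384 bp and a median of 250 tags. Of these neighbours 25 were at least 4000 bp wide, and 60 held more tags than the narrow peak. Over all 521 narrow peaks, the nearest control peak had a median width of 2359 bp and a median of 110 tags. It held more tags than the narrow peak in 510 and was at least 4000 bp wide in 133. That neighbours are larger is mostly set by the choice of the narrowest peaks. Gaps of at most 100 bp separated 26 narrow peaks from their neighbour. The smallest gap was 6 bp, on chromosome 7, where a narrow peak of 896 bp with 36 tags from 50515274 to 50516169 adjoined a domain of 3215 bp with 417 tags. On chromosome 1 a peak of 964 bp from 64708889 to 64709852 with 33 tags lay 8 bp from a domain of 2427 bp with 113 tags. Of the peaks under 600 bp, 6 of 103 had a neighbour within 1000 bp (5.83%, 2.17 to 12.2%), and of the other narrow peaks 58 of 418 did (13.9%, 10.7 to 17.6%).

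Most narrow peaks had a wider peak as their nearest neighbour. The nearest other control peak was itself under 1000 bp for 15 narrow peaks (2.88%, 1.62 to 4.70%), against 1.89% (1.62 to 2.18%) in the 1 to 2 kb class and 1.37% (1.25 to 1.49%) over all control peaks. It was at least 4000 bp wide for 133 narrow peaks (25.5%), 28.3% of the 1 to 2 kb class and 34.4% of all control peaks. The nearest control peak held more tags than the narrow peak in 510 of 521 cases. This is largely set by the choice of members, since narrow peaks had a median of 31 tags and all control peaks 168. The 3 most isolated narrow peaks were on chromosomes 9, X and 3. The peak between 9441931 and 9442455 on chromosome 9, with 48 tags over 525 bp, was 1641500 bp from the nearest control peak on one side and 3332059 bp on the other. The peaks between 92084727 and 92085434 on chromosome X and between 90436882 and 90437844 on chromosome 3 held 28 and 30 tags at distances of 1511063 and 1429354 bp. Whether these stretches hold repeated sequence, where tags are placed less surely, was not analysed here.

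**Figure D3:**
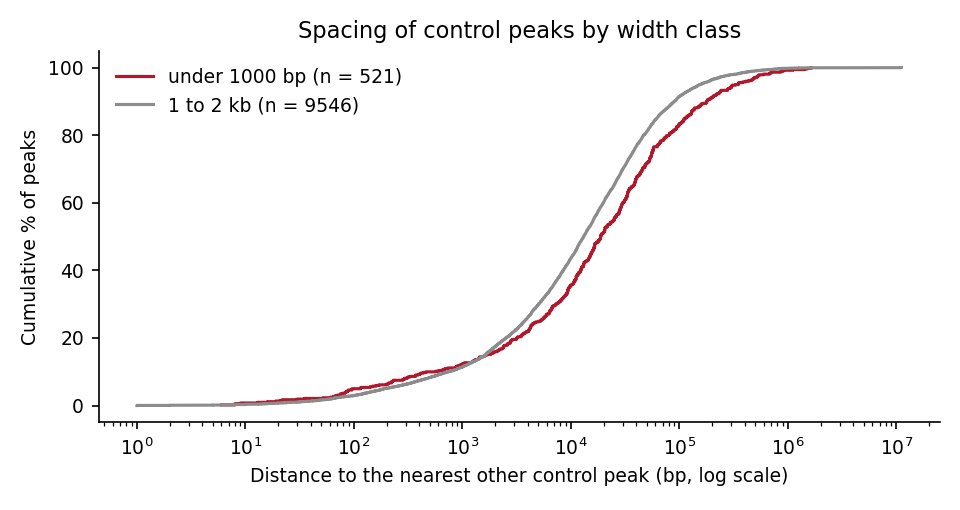
The curves give the cumulative percentage of peaks whose nearest other control peak lies within the distance on the x axis (bp between edges, log scale), in red for the 521 narrow peaks and in grey for the 9546 peaks of 1 to 2 kb. The red curve has reached 4.99% and the grey 2.99% at 100 bp. At 1000 bp they have reached 12.3% and 11.4%, and at 50000 bp 71.6% and 81.0%.

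The share of control peaks that were narrow varied between chromosomes. It was highest on chromosome 18, with 17 of 605 peaks (2.81%, 1.65 to 4.46%), followed by chromosome 7 with 42 of 1800 (2.33%, 1.69 to 3.14%) and chromosome 4 with 39 of 1706 (2.29%, 1.63 to 3.11%). It was lowest on chromosome 20, with 3 of 922 (0.325%, 0.0672 to 0.948%), and on chromosome 17, with 8 of 1725 (0.464%, 0.200 to 0.912%). The intervals of the 3 highest and the 2 lowest chromosomes do not overlap. Peaks of 1 to 2 kb were also frequent on chromosomes 18 and 4 (33.7 and 34.9% of peaks) and infrequent on chromosomes 20 and 17 (13.7 and 17.3%). On chromosome 7 they were 29.4%, nearer to the 26.0% of the whole list. Their lowest share was on chromosome 19 (13.4%), where 0.772% of peaks were narrow. Among all peaks under 2000 bp, the narrow share was lowest on chromosome 20 at 2.33% (0.482 to 6.65%) and highest on chromosome 18 at 7.69% (4.54 to 12.03%), and the intervals of these chromosomes overlap. Chromosome 7, with 7.34% (5.34 to 9.80%), did not overlap chromosome 17, with 2.61% (1.14 to 5.09%), or chromosome 10, with 3.36% (1.97 to 5.32%). The chromosomes compared here were picked after their shares were seen. The intervals are not adjusted for the number of chromosomes, so a gap between 2 of them is a description only. Chromosome Y held no narrow peak among 30, which allows a share of up to 10%.

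Few narrow control peaks coincided with a knockout peak. Of the 521, 14 shared at least 1 bp with a peak of the knockout list (2.69%, 1.48 to 4.47%), where the background over all 36677 control peaks was 28.4%. In the 1 to 2 kb class it was 454 of 9546 (4.76%, 4.34 to 5.20%). Intervals of these shares overlap at their edges. A wider peak also offers more room for an overlap. Within 500 bp of the summit on either side, an equal window for all peaks, the shares were 2.69% (14 narrow peaks, 13 of them the same) and 3.98% (3.597 to 4.39%), against a background of 21.5%. A further 10 narrow peaks (1.92%, 0.924 to 3.50%) had a knockout peak within 1000 bp without touching it. This is near the 1.74% of the wider class and the background of 1.55%. The order of the classes turned when knockout peaks of exactly 300 bp were left out, at 2.11% (11 narrow peaks, 1.06 to 3.75%) and 1.78% (1.53 to 2.07%), against a background of 17.2%. It also turned among the strongest control peaks. With a MACS p of 1e-10 or less, 4 of 19 narrow peaks met a knockout peak (21.1%, 6.05 to 45.6%) and 7.24% (6.28 to 8.31%) of the wider class did, against 37.9% of all control peaks at that threshold. With an FDR of 1% or less it was 2 of 3 narrow peaks and 10.9% of the wider class, against 47.1%. The median distance to the nearest knockout peak was 42897 bp for narrow peaks and 37792 bp for the wider class.

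At like tag counts, from 31 to 50 control tags, the shares of the width classes lay close together. Between 31 and 40 control tags, 5 of 208 narrow peaks held a knockout peak (2.40%, 0.785 to 5.52%) and 28 of 1146 peaks of the wider class did (2.44%, 1.63 to 3.51%). Between 41 and 50 tags the shares were 1 of 44 (2.27%, 0.0575 to 12.02%) and 59 of 2232 (2.64%, 2.02 to 3.397%). Up to 30 tags, 4 of 256 narrow peaks (1.56%, 0.427 to 3.95%) stood beside 1 of only 23 wider ones. From 51 to 106 tags the order was the other way, with 4 of 13 narrow peaks (30.8%, 9.09 to 61.4%) and 294 of 5520 wider ones (5.33%, 4.75 to 5.95%). The last comparison rests on 13 narrow peaks, and these classes were chosen after the data were seen. In classes limited by the quartiles of the narrow peaks, the narrow shares were 0.752% up to 27 tags (1 of 133), 1.91% from 28 to 31 (3 of 157), 2.61% from 32 to 35 (3 of 115) and 6.03% (2.46 to 12.04%) from 36 on (7 of 116). In those classes the wider peaks had no member, 2.86% (1 of 35), 3.86% (11 of 285) and 4.79% (442 of 9226). From 28 to 35 tags the narrow shares were thus the lower, with overlapping intervals. The last class is not like for like, since it reaches 106 tags in narrow peaks and 373 in wider ones.

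**Figure D4:**
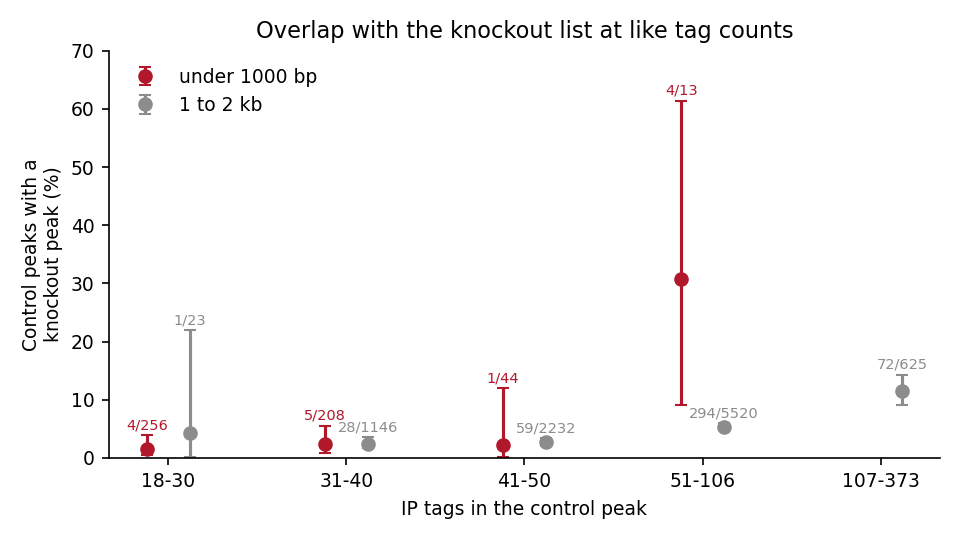
Points give the percentage of control peaks that share at least 1 bp with a knockout peak, by the IP tags of the control peak, in red for narrow peaks and in grey for peaks of 1 to 2 kb. Bars are exact Clopper-Pearson 95% intervals and the fractions give the counts. From 31 to 50 tags the classes lie together, and the red point for 51 to 106 tags rests on 4 of 13 peaks.

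Where a knockout peak did meet a narrow control peak, it usually held many more tags. The 14 knockout peaks had a median of 406 tags (range 16 to 1380), close to the median of 419 over the 23588 knockout peaks, whereas the 14 control peaks had a median of 34.5 (range 26 to 106). The knockout count was the higher in 11 of 14 and the lower in 3. This order is largely set by the choice of members, since the quartiles of the knockout list were 183 and 759 tags. The knockout IP was the less deeply sequenced library. The medians went the same way in the 1 to 2 kb class. There the control peaks with a knockout peak had a median of 66 tags and the 458 knockout peaks 344.5. The direction was thus not particular to narrow peaks, which hold few tags for the control list. The share of pairs with the higher knockout count was not computed over all control peaks. These are raw tags of different libraries over different widths. The share of copied fragments in either library was not analysed here. No narrow peak met more than 1 knockout peak, which allows a share of up to 0.576%. In the 1 to 2 kb class 4 of 9546 did (0.0419%), and over all control peaks 7.80% did.

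The 5 pairs with the most knockout tags were led by the 2 tag-rich regions named above. The knockout peak between 30117647 and 30117970 on chromosome 21 held 1380 tags (1308 to 1455) against 92 in the control, with summits 78 bp apart. The knockout peak between 73159923 and 73160259 on chromosome 3 held 1186 tags (1119 to 1255) against 106, with summits 36 bp apart. Both regions thus had a compact peak with a nearby maximum in each library, and both lay over 100 kb from any other control peak, at 106955 and 109155 bp. A control peak between 49284403 and 49285384 on chromosome 12 with only 32 tags (21.9 to 45.2) contained a knockout peak with 833 (777 to 892), and the summits were 8 bp apart. The narrow peak between 45529581 and 45530228 on chromosome 18 held 37 tags and its knockout peak of 300 bp held 578, with summits 51 bp apart. The pair at the narrow peak between 24996049 and 24996972 on chromosome 22 was of another kind. There the knockout peak of 454 bp with 519 tags shared only 78 bp with the narrow peak of 36 tags, which itself lay 8 bp from a control domain of 3957 bp, and the knockout peak reached into that domain.

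At the low end, 3 knockout peaks held fewer raw tags than their control partners. The knockout IP held 13391724 tags against 27748061 in the control IP, so these raw counts do not show a lower signal in the knockout. The control peak between 77870717 and 77871625 on chromosome 5 held 30 tags (20.2 to 42.8) and the knockout peak 16 (9.15 to 26.0). The counts were 28 and 18 between 152014236 and 152015121 on chromosome 7, and 33 and 22 between 38493272 and 38494166 on chromosome 12. The counting intervals overlap in each of these 3 pairs. Next came a pair of regions on chromosome 2, with 26 control and 237 knockout tags between 162197495 and 162198010 and with 54 and 346 between 231851243 and 231852186. The remaining 4 pairs, on chromosomes 2, 6, 9 and 15, had 358 to 470 knockout and 28 to 65 control tags. The pair on chromosome 9 is the most isolated narrow peak, whose 48 control tags stood beside 358 knockout tags with summits 35 bp apart. Its control score was 40.2 and its fold enrichment over the local background 7, the lowest fold of all narrow peaks, although at 91.4 tags per kb it ranked 5 among them by density.

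The fit between the paired peaks varied. The knockout peak lay wholly inside the narrow control peak in 8 of 14 cases, and the summits were within 150 bp of each other in 8 of 14, with a median distance of 116.5 bp. These values were not computed for the wider class or for all control peaks, so they describe the 14 pairs only. The loosest pair, at the narrow peak between 151457861 and 151458847 on chromosome 2, shared 5 bp and had summits 918 bp apart. Of the 14 knockout peaks 3 were exactly 300 bp wide (21.4%, 4.66 to 50.8%), while this was the width of 62.7% (58.1 to 67.1%) of the 458 knockout peaks that met the wider class and of 55.0% of the whole knockout list. Only 2 of the 103 control peaks under 600 bp met a knockout peak (1.94%, 0.236 to 6.84%), against 12 of the 418 others (2.87%, 1.49 to 4.96%).

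**Figure D5:**
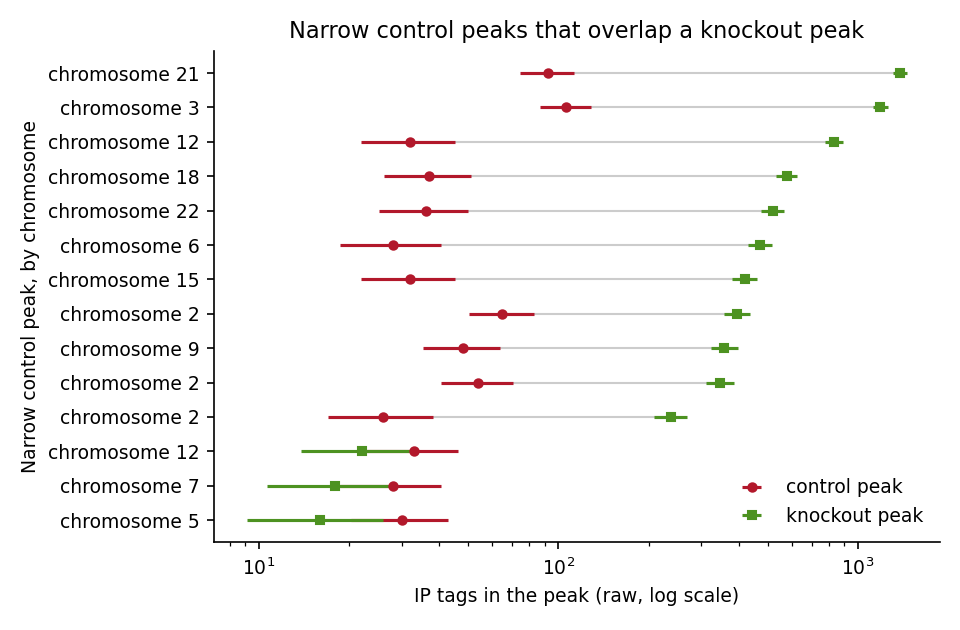
Each row is a narrow control peak that overlaps a knockout peak, labelled by chromosome and ordered by knockout tags. Circles give the raw IP tags of the control peak and squares those of the knockout peak (log scale), with exact Poisson 95% intervals. In 11 of the 14 rows the square lies to the right of the circle, and in the last 3 the intervals overlap.

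The limit of 1000 bp did not mark a step in the data. The 3 widest narrow peaks, all of 999 bp, were on chromosomes 2, 4 and 5 and held 54, 35 and 54 tags. The narrowest peaks beyond the limit were 5 of 1000 bp, which held 30 to 58 tags with a median of 35. None of these 8 peaks met a knockout peak, where the background over all control peaks was 28.4%. At shares as low as those of the 2 classes beside the limit, given next, 8 peaks are too few to show a difference. From 900 to 999 bp the median was 33 tags and from 1000 to 1099 bp it was 36, and 7 of 210 and 16 of 377 peaks of these classes met a knockout peak.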

How the data were processed

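Per the submitters' processing notes, Bowtie2 2.2.4 and MACS 1.4.3 were used with hg19. Per the file headers, reads were trimmed with cutadapt and each IP was compared with the input of its genotype at a p cutoff of 0.0001, with a fragment length of 300 bp and a tag size of 150 bp, and the larger library was scaled to the smaller. The deposited tags are counts within a peak, not normalized. The deposited score (-10 log10 p, its column name lost), fold enrichment (a ratio over local background, per the file headers) and FDR (percent) are the authors' values, used only within a list. Neither labels nor headers state whether duplicate tags were removed.

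Peaks were read with Python 3.11.15, numpy 2.4.6, pandas 2.3.3 and scipy 1.17.1, and figures drawn with matplotlib 3.10.9. No minimum was applied. Shares have exact Clopper-Pearson and tags exact Poisson 95% intervals, which count copies of a fragment as separate tags, and medians have order-statistic intervals. For a count of 0 the limit is 3 counts of the total. Overlap means at least 1 shared bp, checked with bedtools 2.31.1. The overlap and distance steps were tested on simulated data. With 1 library per group no test was made and no p-value is given.

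Regions named are the 5 narrow peaks with the most tags, the 5 narrowest, the 5 pairs with the most and the 5 with the fewest knockout tags, the 3 farthest from and the 3 nearest to another control peak, and 3 on each side of the limit, with ties going to the lower chromosome and start. All 5 peaks of 1000 bp are given, and the tied peak of 459 bp, after their values were seen. The remaining 4 pairs, the chromosome 2 pair with the loosest fit among them, were named after their values were seen. The members, the comparisons and the alternatives were chosen with earlier results of these data known. Genes and sequences were not used for want of an hg19 reference.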

Additional observations from a re-analysis of the deposited data

How the results depend on the processing

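No paired analysis was possible because each group has 1 library. Of 52 alternative values, 29 stayed within the counting or order-statistic interval of the reported value and 23 left it. The sub-classes by width at 600 bp, the equal window within classes of tags and the removal of control peaks within 1000 bp of another were added after seeing the data, and none of their values left its interval. Shares with a knockout peak, reported as 2.69% for narrow peaks and 4.76% for the 1 to 2 kb class, were 21.1% (4 of 19) and 7.24% with a MACS p of 1e-10 or less, 66.7% (2 of 3) and 10.9% with an FDR of 1% or less, and 4.61% and 6.49% with a knockout peak within 1000 bp. The order of the classes thus turned under both stricter thresholds, which leave few narrow peaks. It turned as well with only knockout peaks wider than 300 bp, where the wider class had 1.78% and the narrow share of 2.11% stayed in its interval. The equal window gave 3.98% in the wider class. Median tags, 31 and 57 as reported, were 25 for narrow peaks at a limit of 800 bp, 36 and 59 at 1200 bp, 54 and 85 at the stricter p, and 92 and 124 at the stricter FDR. Median distances to another control peak, 18842 and 13100.5 bp as reported, were 28231.5 bp for narrow peaks at a limit of 800 bp, 47697 and 25115 bp at the stricter p, 106955 and 36048 bp at the stricter FDR, 102768 and 60710 bp to neighbours of at least 4000 bp, and 15620 bp for the wider class from summit to summit. The stricter thresholds remove neighbours too, which lengthens distances by construction. In the remaining shifts the cause was not tested. Narrow peaks kept fewer tags and the longer median distance under each of these settings. At the stricter p and FDR, however, the distance intervals of narrow peaks were 10858 to 106955 bp and 6709 to 109155 bp. Both hold the median of the wider class, so the order of the distances is not settled there. A count of 31 tags, the median, has an exact Poisson interval of 21.1 to 44.0, wider than the quartiles of the narrow peaks (27 and 35).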
